A study of Rattus norvegicus with 6 samples.

Results

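The granins and the granule membrane proteins of the insulin secretory granule were compared between replicating and quiescent rat β-cells. The genes taken were the 6 granins *Chga*, *Chgb*, *Scg2*, *Scg3*, *Scg5* and *Vgf* and the 3 membrane proteins *Ptprn*, *Ptprn2* and *Slc30a8*, chosen by name among the spots of the array that are not controls. All 9 were present, with 11 probes on 39 spots out of 45598 probes in all. *Vgf* and *Slc30a8* had 2 probes each and the other 7 genes 1. In the call used throughout, which is the study's own selection (unadjusted p no higher than 0.05 with a log2 ratio of 1 or more in either direction), *Vgf* and *Chga* were higher in replicating β-cells, by 4.30-fold and 2.01-fold. No granin and no membrane protein was called lower, and 0 of the 9 passed the Benjamini-Hochberg adjusted p of 0.05 in limma. Of all probes 4.44% were called higher and 4.18% lower. Without the islet preparation that had its largest ratio, the log2 ratio of *Vgf* was 1.05 against 2.11 with all. *Chga* lost its call in 7 of 14 alternative settings and *Vgf* in 2.

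Islet endocrine cells store their hormones in dense-core granules. Granins are acidic, soluble proteins of the granule lumen that aggregate with hormone in the trans-Golgi network, help to form the granule and are cut into peptides that are released with the hormone. The granule membrane carries the receptor-type tyrosine phosphatase family members IA-2 (*Ptprn*) and phogrin (*Ptprn2*), which lack ordinary phosphatase activity, and the zinc transporter ZnT8 (*Slc30a8*), which fills the granule with the zinc that insulin crystallizes with. Granins are made by other islet endocrine cells too, so none of them marks β-cells alone.

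The cells came from islets of male young adult Wistar rats. No sample carried a transgene or a drug treatment other than EdU, a thymidine analogue that dividing cells take up. Islets of both groups were kept with EdU overnight at basal glucose, dispersed, fixed in paraformaldehyde, permeabilized and sorted. Both fractions were gated as large, granular cells positive for Newport Green, a dye that binds zinc, and then as EdU-positive (replicating, 3 samples) or EdU-negative (quiescent, 3 samples). The gate thus used granularity and zinc, which are features of the granule itself. Each of the 3 islet preparations pooled 4 rats and gave 1 sample of each kind, so a ratio could be taken within each preparation. The study collected far fewer replicating than quiescent β-cells and less RNA from them. Samples of a pair may thus differ in input as well as in EdU, and its part in the ratios was not tested. The labels name β-cells for all samples. In bulk samples such as these, fewer cells of a type and less RNA per cell cannot be told apart.

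The probes that carry the results are shown here as the array files give them, each 60 bases long with its position on the rat build rn4. *Vgf* had a probe in its coding sequence (chr12:20905401-20905460, plus strand, from base 1711 of the transcript) and another at the 3′ end of the same transcript (chr12:20906265-20906324, from base 2573). The *Chgb* probe also lies at the 3′ end (chr3:120584813-120584872, plus strand, from base 2475). Of these 3′ probes and of the *Ptprn2* probe (chr6:144548969-144549028, plus strand) the 30 bases that hold the part in capitals are printed. Capitals mark the AATAAA hexamer of a poly(A) signal, and for *Ptprn2* a run of CA repeats.
*Vgf* coding probe: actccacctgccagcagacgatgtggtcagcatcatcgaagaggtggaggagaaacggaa
*Vgf* 3′ probe: atagttttgctaagaAATAAAagtgactat
*Chgb* 3′ probe: tgaaacacaaacAATAAAagatttacctga
*Ptprn2* probe: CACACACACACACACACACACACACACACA

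Several granin genes are known targets of CREB, the factor that binds the cAMP response element. Promoters from RefSeq on the assembly GRCr8, running from 250 bases before to 50 bases after the start of a gene, were at hand for 7 of the 9 genes, all but *Chga* and *Slc30a8*. The whole element, TGACGTCA, which reads the same on both strands, stood in the promoters of *Scg2* and *Vgf*. It stood in 612 of all 33469 promoters, or 1.83%. The shorter TGACG, searched on both strands and contained in the whole element, was found in 5 of the 7 (*Ptprn*, *Scg2*, *Scg3*, *Scg5* and *Vgf*) and in 21.2% of all promoters. A match describes these letters and is not a bound site. The element lies upstream of the start in both genes, beginning 90 bases before it in *Vgf*. The 60 bases around it are printed with the element in capitals, for *Scg2* at chr9:88256956-88257015 and for *Vgf* at chr12:25277077-25277136, both on the minus strand.
*Scg2* promoter: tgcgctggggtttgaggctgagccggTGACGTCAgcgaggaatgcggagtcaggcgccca
*Vgf* promoter: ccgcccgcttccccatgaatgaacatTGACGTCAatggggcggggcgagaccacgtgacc

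All values below are the log2 values that the authors deposited, corrected for background by normexp and quantile normalized, and a log2 ratio is replicating minus quiescent. The 12 cell cycle genes checked were all called higher in the replicating samples, with a median log2 ratio of 4.17. Most of these 12 are among the genes that the study listed as most upregulated on these same arrays. Their calls are therefore not an independent check of the samples. Insulin and the other β-cell markers measured, 13 of the 14 listed, were well above background on all 6 arrays. The quiescent array of preparation 2 stood apart, with 1583 spots marked as outliers against 252 to 299 on the other arrays, so results are also given without preparation 2. That array read lowest for 35.2% of the probes measured on all 6, for 6 of the 9 granule genes and for 58.6% of 87 other granule genes. It also read highest for 33.3% of those probes, for 0 of the 9 granule genes and for 16.1% of the other granule genes, so it was extreme in both directions. No spot was saturated, and the 11 probes were well above background on every array. Of all spots, 89.2%, 84.3% and 89.8% were well above background on the replicating arrays of preparations 1 to 3. On the quiescent arrays the shares were 97%, 98.7% and 88.4%. The 6 arrays lay on 1 slide and the number of arrays sets the precision.

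*Vgf* encodes a secreted neuroendocrine protein that is cut into several peptides, and it had the largest ratio of the 9 genes. Its brighter probe, the 3′ probe with 10 spots, read 11.27, 11.71 and 11.30 on the replicating arrays of preparations 1 to 3. On the quiescent arrays it read 9.85, 7.49 and 10.64. The groups did not overlap, and the quiescent array of preparation 2 lay far below the rest. The log2 ratios by preparation were 1.43, 4.23 and 0.67, and limma fitted 2.11 (SE 0.74, 95% interval 0.22 to 3.99, unadjusted p = 0.0346, adjusted p = 0.475). Without preparation 2 the ratio was 1.05, with an unadjusted p of 0.0406 in limma, so the call held with a smaller ratio. It was lost without preparation 1 (2.45, unadjusted p = 0.0724 in limma).

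The coding probe of *Vgf* is a separate measurement of the same transcript. It read 10.82, 10.79 and 10.89 on the replicating arrays and 9.43, 8.31 and 9.72 on the quiescent arrays. Every replicating value again lay above every quiescent value and the replicating arrays lay close together. Its ratios were 1.39, 2.48 and 1.17 by preparation, and limma fitted 1.68 (SE 0.39, 95% interval 0.68 to 2.68), which is 3.20-fold, at an unadjusted p of 0.00741 and an adjusted p of 0.475. Both probes of *Vgf* passed the call, and both had their largest ratio in preparation 2.

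Chromogranin A (*Chga*) is the granin that drives granule formation in many endocrine cells and the precursor of pancreastatin. Its probe (chr6:126829580-126829639, plus strand, from base 936 of the transcript) read 12.05, 12.81 and 11.91 on the replicating arrays. On the quiescent arrays it read 11.28, 11.97 and 10.51. The groups overlapped, since the replicating value of preparation 3 lay just under the quiescent value of preparation 2, but within each preparation the replicating sample was the higher. The ratios were 0.77, 0.84 and 1.41, with a fitted log2 ratio of 1.00 (SE 0.33, 95% interval 0.17 to 1.84, unadjusted p = 0.0266, adjusted p = 0.475 in limma). This ratio lay on the threshold, and the call was lost in 7 of the 14 alternative settings, with ratios of 0.80 to 1.32 over all of them. Those included the settings without preparation 1 (unadjusted p = 0.111 in limma) and without preparation 3 (ratio 0.80). Without preparation 2 its ratio was 1.09. The 14 include a recomputation at a normexp offset of 50, which repeats the deposited values and so could not lose the call.

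Chromogranin B (*Chgb*), which like *Chga* promotes granule formation, missed both parts of the call by little. Its 10 spots gave 13.80, 13.45 and 13.73 on the replicating arrays against 12.89, 12.44 and 13.24 on the quiescent arrays. All replicating values lay above all quiescent values. The ratios of 0.90, 1.01 and 0.48 gave a fitted log2 ratio of 0.80 (1.74-fold, SE 0.32, 95% interval -0.01 to 1.61, unadjusted p = 0.0518 in limma). Of the 9 genes its profile over the arrays lay nearest to the mean profile of all 9, with a root mean square difference of 0.229.

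Secretogranin II (*Scg2*) is the precursor of secretoneurin and shares the whole cAMP response element with *Vgf*. Its probe (chr9:78762735-78762794, minus strand) read 15.16, 15.07 and 15.22 on the replicating arrays and 14.74, 11.81 and 15.38 on the quiescent arrays. Only the quiescent array of preparation 2 departed from the others. The ratios were 0.42, 3.26 and -0.16, and the fitted log2 ratio of 1.17 had an interval from -0.68 to 3.02 and an unadjusted p of 0.165 in limma. Without preparation 2 it was 0.13, so 1 array carried the value.

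Secretogranin III (*Scg3*) tethers other granins to the cholesterol-rich granule membrane, and secretogranin V (*Scg5*, also called 7B2) is the chaperone that the prohormone convertase PC2 needs to mature. *Scg3* (chr8:80496358-80496417, minus strand) read 13.01, 12.71 and 13.01 on the replicating arrays and 12.88, 12.21 and 14.25 on the quiescent arrays. *Scg5* (chr3:99629194-99629253, minus strand) read 15.62, 15.65 and 15.56 on the replicating arrays and 15.39, 15.28 and 16.13 on the quiescent arrays. For both genes the replicating values lay inside the range of the quiescent ones, and the quiescent array of preparation 3 was the highest of the 6. The log2 ratio was -0.20 for *Scg3* (95% interval -1.34 to 0.93, unadjusted p = 0.665 in limma). It was 0.01 for *Scg5* (95% interval -0.89 to 0.91, unadjusted p = 0.983 in limma). Ratios of preparations 1 and 2 were above 0 and those of preparation 3 below 0, at -1.24 for *Scg3* and -0.58 for *Scg5*. Neither interval excludes a difference of the size found for *Chgb*.

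**Figure D1:**
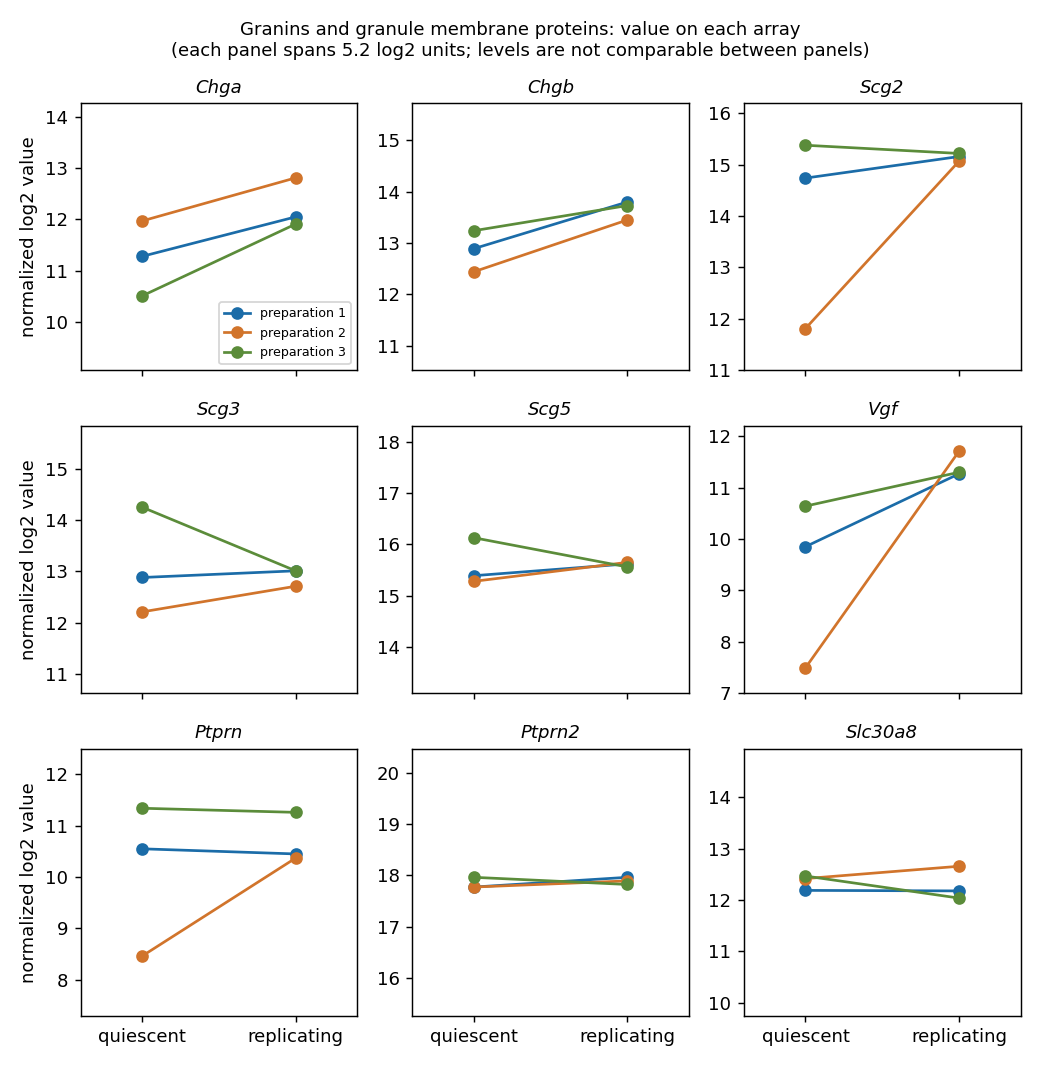
Deposited log2 value of each gene on each array (y axis, each panel spanning the same number of log2 units), quiescent on the left and replicating on the right, with a line joining the arrays of 1 islet preparation; genes with more than 1 probe show the brighter. *Chga*, *Chgb* and *Vgf* run upward in all 3 preparations, while in *Scg2* and *Ptprn* only the line of preparation 2 is steep.

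Among the membrane proteins, IA-2 (*Ptprn*) and phogrin (*Ptprn2*) keep the granule store of the β-cell and are autoantigens in type 1 diabetes. The *Ptprn* probe crosses an intron, with its 60 bases spread over 225 bases of the genome (chr9:74528459-74528683, minus strand). It read 10.45, 10.37 and 11.26 on the replicating arrays and 10.55, 8.46 and 11.34 on the quiescent arrays. Preparations 1 and 3 had near-equal pairs, with ratios of -0.10 and -0.09, and preparation 2 had a ratio of 1.91. The fitted log2 ratio was 0.57 (95% interval -0.74 to 1.89, unadjusted p = 0.314 in limma) and without preparation 2 it was -0.09.

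The zinc transporter ZnT8 (*Slc30a8*) had 2 probes, which the files place on different transcript records of the gene (from base 2461 of a predicted transcript for the brighter and from base 1210 of another record for the dimmer). The brighter (chr7:88619717-88619776, plus strand) read 12.18, 12.66 and 12.04 on the replicating arrays and 12.19, 12.42 and 12.47 on the quiescent arrays. The dimmer (chr7:88617078-88617137, plus strand) read 10.19, 9.86 and 10.05 on the replicating arrays and 9.64, 7.50 and 9.98 on the quiescent arrays. They disagreed mainly on the quiescent array of preparation 2, which was ordinary at the first probe and the lowest of the 6 at the second. Limma fitted -0.07 (95% interval -0.90 to 0.76, unadjusted p = 0.839) to the brighter and 0.99 (95% interval -0.35 to 2.34, unadjusted p = 0.117) to the dimmer. Neither was called.

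*Ptprn2* read 17.96, 17.89 and 17.82 on the replicating arrays and 17.77, 17.77 and 17.96 on the quiescent arrays. It was among the 4 brightest of all probes on every array, and quantile normalization gives each rank the same value on all arrays, so its log2 ratio of 0.06 (95% interval -0.72 to 0.85) is held near 0 by its rank. The probe holds 19 CA units, in part printed above. On this array 20 probes held a run of at least 10 CA units and 29 a run of at least 10 TG units. All 49 had a median rank within the brightest 1000, against 1.97% of all probes. The *Ptprn2* value therefore stands beside a brightness that probes with such repeats shared, and whether its signal came from *Ptprn2* RNA was not tested.

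**Figure D2:**
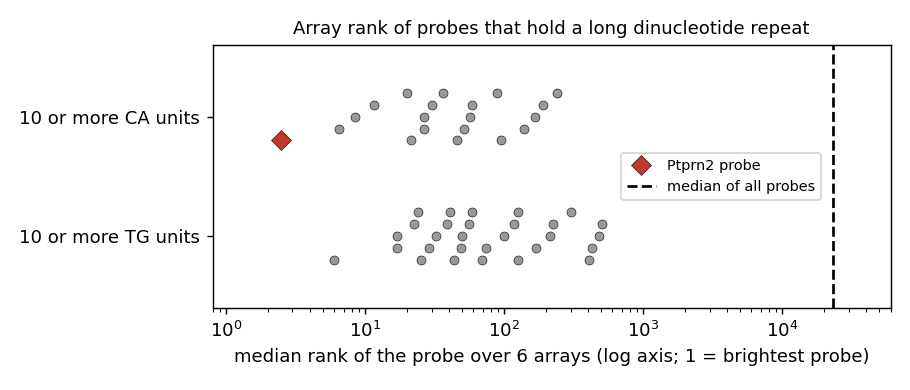
Median rank over the 6 arrays (log axis, 1 the brightest) of probes with 10 or more CA units (top row) or TG units (bottom row), each a grey point, with the *Ptprn2* probe as a red diamond and the median of all probes, 23127, as a dashed line. All repeat probes sit within the brightest 1000.

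Taken by their roles, 2 of 6 granins and 0 of 3 membrane proteins were called higher, and 0 of 9 lower. Over all 45598 probes 4.44% were called higher and 4.18% lower. The count of 2 is 22.2% of the 9 genes, and it was 0 without preparation 1, 2 without preparation 2 and 1 without preparation 3. At the adjusted p 0% of all probes passed, and with no limit on the ratio limma had 2286 probes higher and 2093 lower at an unadjusted p of 0.05 or less. The ratio was above 0 in all 3 preparations for 3 of the 9 genes (*Chga*, *Chgb* and *Vgf*), against 15.7% of the probes measured on all 6 arrays, and below 0 in all 3 for none, against 20.5%. *Chgb* and *Vgf* had every replicating array above every quiescent one, as did 9.01% of those probes.

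The median log2 ratio was 0.90 over the granins and 0.06 over the membrane proteins, and 0.57 over the 9 genes, against -0.07 over all probes. The 0.06 is the ratio of *Ptprn2*, which its rank holds near 0. It lies between 0.57 for *Ptprn* and -0.07 for the brighter *Slc30a8* probe, and the dimmer *Slc30a8* probe had 0.99. The gap between granins and membrane proteins thus depends on these probes. By preparation the median of the 9 genes was 0.24, 0.84 and -0.13, so preparation 3 had the opposite sign. Without preparation 2 the median was 0.03 over the 9 genes, 0.41 over the granins and -0.09 over the membrane proteins, while the same 2 genes were called. For all but *Slc30a8* (SD 0.32 against 0.15) the replicating arrays were also closer to one another than the quiescent arrays were. The SD was 0.08 against 1.91 for *Scg2*, 0.05 against 0.46 for *Scg5* and 0.25 against 1.64 for *Vgf*. For *Scg2* and *Vgf* the quiescent SD rested largely on the array of preparation 2, at 11.81 and 7.49. That array read lowest for 35.2% and highest for 33.3% of the probes measured on all 6 arrays. The share of all probes with closer replicating arrays was not computed, so the difference is not particular to these genes as far as is known. Spots of 1 probe on 1 array, where a probe had more than 1, had an SD of 0.039 to 0.174.

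**Figure D3:**
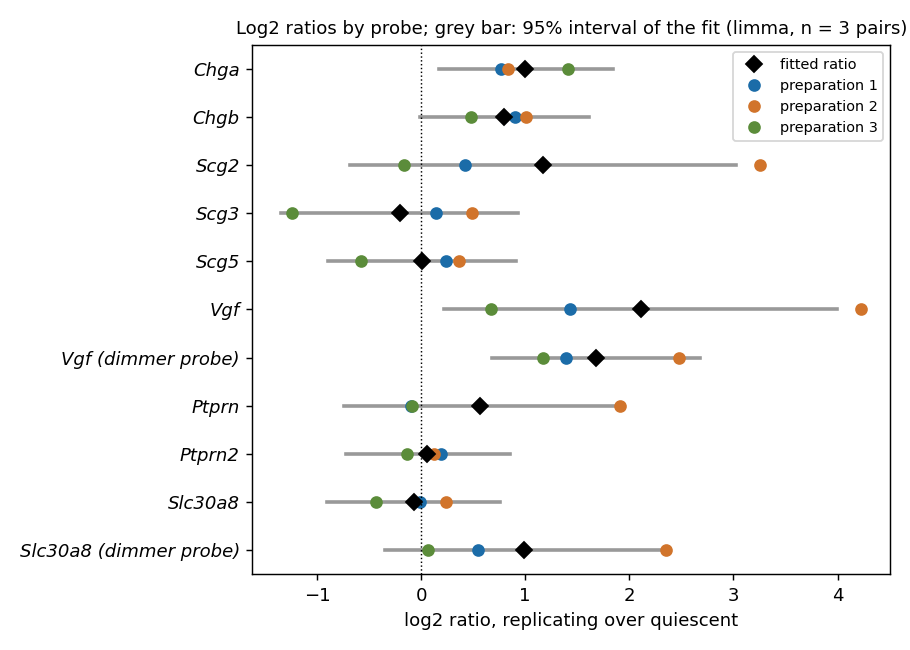
Log2 ratio of replicating over quiescent β-cells (x axis) for each of the 11 probes, with coloured points for the 3 preparations, a black diamond for the ratio fitted by limma and a grey bar for its 95% interval. The intervals of *Chga* and both *Vgf* probes lie above 0, and for *Scg2*, *Ptprn* and the dimmer *Slc30a8* probe preparation 2 sits far to the right of the others.

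Other genes of the granule, with ZnT transporters and regulators of granule genes, were taken from 6 lists by role. They were 89 genes on the array in all and are called the other granule genes here. Of these 0 were called higher and 2 lower, against 4.44% and 4.18% of all probes. Their median log2 ratio was 0.25, and 56 had a ratio above 0, against 20660 of all 45598 probes. The medians by preparation were 0.23, 0.76 and -0.21, the same order as in the granins and membrane proteins. Ratios were above 0 in all 3 preparations for 18 of the 89 and below 0 in all 3 for 7. The shares among the probes measured on all 6 arrays were 15.7% and 20.5%.

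The 11 genes of granule cargo and its processing had a median log2 ratio of 0.89 and 0 calls. The medians by preparation were 0.26, 1.88 and -0.10, and without preparation 2 the median was 0.12. The insulin genes had ratios of 0.25 (*Ins1*, 95% interval -0.62 to 1.12, unadjusted p = 0.498 in limma) and 0.42 (*Ins2*, unadjusted p = 0.269). The study's qPCR on sorted fractions instead found *Ins2* significantly lower in replicating β-cells. Both array probes were very bright, at 15.51 to 17.20, where quantile normalization narrows the differences that can show. The reason for the opposite directions was not tested. Islet amyloid polypeptide (*Iapp*), which is released with insulin, had a ratio above 0 in each preparation (0.55, 1.88 and 0.29) and a fitted ratio of 0.91 (95% interval -0.19 to 2.00, unadjusted p = 0.0872 in limma). Among the enzymes that process prohormones, the convertase PC1/3 (*Pcsk1*) had 1.01, carboxypeptidase E (*Cpe*) 1.19 and PC2 (*Pcsk2*), the partner of *Scg5*, -0.04. The *Pcsk1* and *Cpe* values rested on preparation 2, whose ratio was 2.44 against 0.55 and 0.04 for *Pcsk1* and 3.58 against 0.26 and -0.26 for *Cpe*. Without it they were 0.29 and 0.00, and that of *Iapp* was 0.42.

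None of the 22 genes of granule biogenesis and sorting was called (median 0.09), and none of the 17 of acidification and small-solute transport (median 0.30). Without preparation 2 these medians were 0.03 and 0.12. Of the 20 genes of tethering and fusion measured, *Syt5*, a synaptotagmin that binds calcium on dense-core granules, was called lower. It read 10.37, 10.88 and 10.63 on the replicating arrays and 11.60, 11.91 and 11.69 on the quiescent arrays. The groups did not overlap and the 3 preparations had much the same ratio, -1.23, -1.03 and -1.05 (fitted -1.11, 95% interval -1.88 to -0.33, unadjusted p = 0.0142, adjusted p = 0.475 in limma). The list as a whole had a median of 0.18, and of -0.15 without preparation 2.

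Most paralogues of ZnT8 move zinc out of the cytosol into vesicles or out of the cell. None of the ZnT paralogues was called in either direction. Their log2 ratios were 0.55 for *Slc30a1*, -0.13 for *Slc30a2*, 0.05 for *Slc30a3*, 0.11 for *Slc30a4* and 1.03 for *Slc30a5*. They were 0.68 for *Slc30a6*, 0.06 for *Slc30a7*, 1.37 for *Slc30a9* and -0.17 for *Slc30a10*. For *Slc30a2* and *Slc30a7* the quiescent array of preparation 2 had no value, so these came from the other pairs. The highest, *Slc30a9*, had ratios of 1.11, 2.97 and 0.03 and an unadjusted p of 0.0745 in limma.

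Among 10 regulators of granule genes *Mafa*, a transcription factor of mature β-cells, was called lower. It read 12.22, 12.17 and 12.07 on the replicating arrays and 13.47, 12.67 and 13.34 on the quiescent arrays, without overlap. The ratios were -1.25, -0.50 and -1.27, with a fitted ratio of -1.01 (95% interval -1.87 to -0.14, unadjusted p = 0.0304, adjusted p = 0.475 in limma). Over the lists together the count of 2 genes called lower, *Syt5* and the regulator *Mafa*, was 0 without preparation 1 and 1 without preparation 3.

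**Figure D4:**
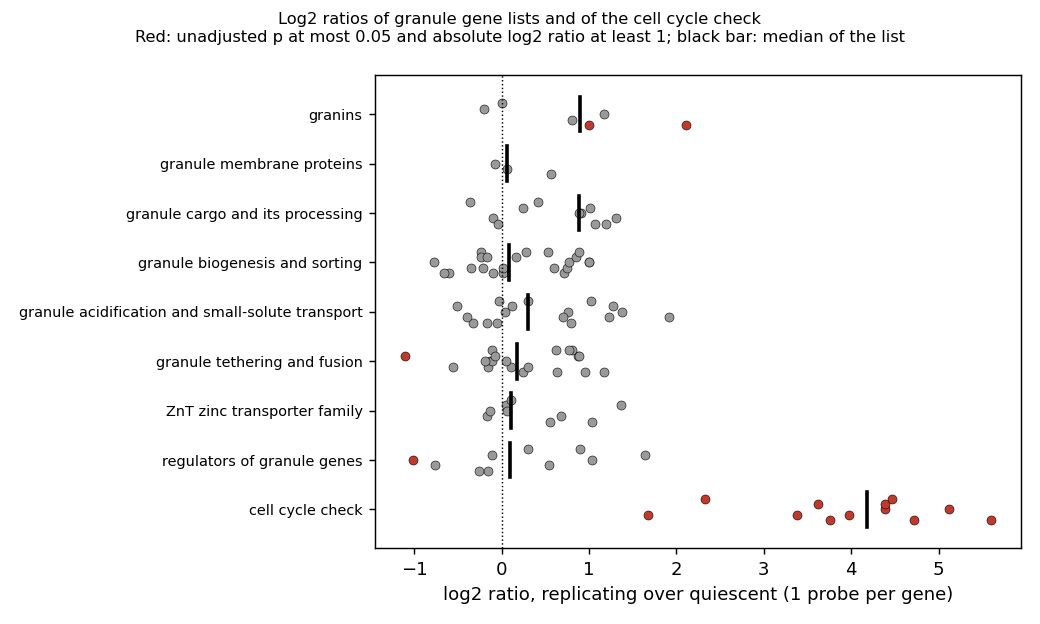
Fitted log2 ratio of replicating over quiescent β-cells (x axis) for each gene of the granule lists and of the cell cycle check, 1 probe per gene, with red for genes past the call and a black bar for the median of a list. Red points in the granule lists are *Chga* and *Vgf* on the right and *Syt5* and *Mafa* on the left, and all 12 cell cycle genes are red.

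Since granins are shared by the islet endocrine cells, the hormones of the other cell types are given beside them. The counts of markers called here and in the next paragraph stand beside 4.44% of all probes called higher and 4.18% lower. Glucagon (*Gcg*) was called higher in replicating samples, with ratios of 1.34, 3.26 and 2.55 and a fitted log2 ratio of 2.39 (unadjusted p = 0.00327 in limma). Of 10 α-cell markers 3 were called higher and 0 lower, and their summed level on the linear scale was 24100 to 91900 on the replicating arrays against 6280 to 18800 on the quiescent arrays. Somatostatin (*Sst*, ratio 1.74) was 1 of 2 of the 8 δ-cell markers called higher, with a summed level of 3930 to 5040 against 4630 to 7300. Pancreatic polypeptide (*Ppy*, ratio 1.21) was the only one of 5 PP-cell markers called, with a summed level of 5040 to 9800 against 3690 to 4530. The median log2 ratio was 0.58 over the α-cell, 0.04 over the δ-cell and -0.23 over the PP-cell markers. Ratios above 0 were found for 8 of 10, 4 of 8 and 2 of 5 of these, so the δ-cell and PP-cell lists did not follow their hormones.

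The 13 β-cell markers had 0 higher and 1 lower (*Mafa*), a median log2 ratio of -0.42 and a summed level of 268000 to 334000 in replicating and 172000 to 380000 in quiescent samples. Of 14 fibroblast and stellate cell markers 5 were called higher, with a summed level of 15200 to 43000 against 6510 to 7170, and of 10 immune cell markers 3, with 10200 to 12200 against 5600 to 20200. Acinar cell markers had 1 of 11 called higher (8310 to 84300 against 4650 to 42600). Of the duct and endothelial cell markers 0 were called. No defining marker of these lists was below background on all arrays. The part of other cell types in the *Chga* and *Vgf* ratios was not tested.

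By a rule that used all 6 arrays and not the groups, 14827 genes well above background were ranked by how near their profile lay to the mean profile of the 9 genes. That mean, centred on each gene's own level, was 0.26, 0.35 and 0.30 on the replicating arrays and -0.18, -1.03 and 0.31 on the quiescent arrays. Among the nearest genes were *Tmem265*, *Prdm4*, *Nudt4* and *Nudt3*, with root mean square differences of 0.066 to 0.082 log2 units. The 9 genes themselves lay from 0.229 for *Chgb* to 0.943 for *Vgf* about their mean, with *Chga* at 0.875. The nearest genes were picked from 14827 for their small differences, so these ranges cannot show how closely the 9 run together. The usual difference over all genes was not computed. *Chga* and *Vgf*, the genes called, thus had the largest differences, but this measure counts size as well as shape. *Vgf* had the sign of the mean on every array, mostly at a larger size. Its centred values were 0.9, 1.34 and 0.92 on the replicating arrays and -0.53, -2.89 and 0.26 on the quiescent arrays. *Chga* had its lowest value on the quiescent array of preparation 3 and *Vgf* on that of preparation 2.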

How the data were processed

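Cy3-labelled cDNA of 6 samples was hybridized to Agilent rat arrays of 60-base probes. The authors amplified the RNA, and the deposited scanner files (Feature Extraction) hold spot intensity values that were not normalized between arrays. A value table from the authors holds deposited log2 values, made with normexp and quantile normalization. Recomputation with limma 3.58.1 (R 4.3.3, with the data.table package at version 1.17.8) at a normexp offset of 50 differed from these by at most 0.000245, and the deposited log2 values were used. Control spots were left out, outlier-marked spots were set to missing and a probe's spots were averaged (1 spot for 43279 probes, 2 for 969 and 10 for 1350). Genes are those of the array files, and 21109 probes matched a RefSeq transcript of GRCr8. The probe with the highest mean over all arrays represents a gene.

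Each probe was fitted with lmFit and eBayes, blocked by islet preparation, following the paired test of the study. Pairing comes from the design, in which a preparation gave 1 sample of each kind; deviations of paired arrays correlated at 0.0561, 0.242 and 0.258. Benjamini-Hochberg adjustment ran over all 45598 probes. Scripts were tested on simulated data. The genes described are all 9, members of the other granule lists with an unadjusted p of at most 0.05, the ZnT paralogues, 6 cargo genes, the hormones among the cell type markers (other marker genes that pass are only counted) and the 5 nearest profiles, of which 1 is not reported here. Genes, lists and tests were chosen with earlier results of these data known. Alternatives were other normexp offsets, Feature Extraction's processed signal or the normexp values scaled to the 75th percentile, cyclic loess, a background filter, no block, outliers kept, the median over probes, a variance trend and each preparation left out. All arrays shared 1 slide and scan, so no such block was fitted. The qPCR and culture experiments were not analysed here.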

Additional observations from a re-analysis of the deposited data

How the results depend on the processing

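The count of genes called higher, 2 of 9, was 1 with a normexp offset of 0 or 16, with cyclic loess or with no replicate block (no pairing), and 0 with the processed signal scaled to the 75th percentile, which shifted the median of all probes to -0.71. It ranged from 0 to 2 with each preparation left out: 0 without preparation 1, where all probes had 518 calls higher and 63 lower, and 1 without preparation 3. No gene was called lower in any setting, and 0 of the 9 passed the adjusted p in any setting. *Chga* lost its call in 7 of 14 settings and *Vgf* in 2 (1.84 with the processed signal and 2.45 without preparation 1). The 14 include the recomputation at a normexp offset of 50, which repeats the deposited values. The median of the 9 genes, 0.57, was 0.30 with the processed signal, 0.23 with normexp values at the 75th percentile and 0.18 with cyclic loess, and ranged from 0.03 to 0.80 with each preparation left out, the lowest without preparation 2. *Slc30a8* was 0.46 by the median over its probes.

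Of the 89 other granule genes, 0 called higher became 3 with normexp values at the 75th percentile, 2 with cyclic loess, 1 with no replicate block, 4 with a variance trend and 2 with the median over probes, and ranged from 0 to 15 with each preparation left out, the highest without preparation 3. The 2 called lower became 0 with a normexp offset of 0, 1 with 16 and 0 with either 75th-percentile scaling, and ranged from 0 (without preparation 1) to 2 with each preparation left out. Over all probes the adjusted p was passed by 719 with normexp values at the 75th percentile (median of all probes -0.39), 204 with cyclic loess, 99 with no block, 61 with a variance trend and 84 without preparation 2. The split of 2023 calls higher and 1905 lower was 662 and 3193 with the processed signal, 1596 and 5862 with normexp values at the 75th percentile, 1879 and 878 with no block, 1447 and 813 without preparation 2 and 5112 and 5633 without preparation 3. The causes were not tested. With 3 pairs, intervals of most genes are wider than a doubling, and quantile normalization leaves no room for the brightest probes to differ.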
